A study of Mus musculus with 6 samples.

Results

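The proximal microRNAs (miRNAs) of the imprinted Dlk1-Dio3 locus were followed across the zones of the mouse growth plate. Members were the 8 miRNAs whose systematic name on the array was mmu-miR-337-5p, mmu-miR-431, mmu-miR-433, mmu-miR-127 or mmu-miR-434-3p, from the hairpins antisense to Rtl1, or mmu-miR-341, mmu-miR-1188 or mmu-miR-370, from the next group of hairpins (mmu, for mouse, is left out below). They were taken by name, not by a threshold on their signals, and made up 8 of 690 mouse miRNAs, and 16 of 1928 probes, on the array. Proliferative, prehypertrophic and hypertrophic cartilage had been dissected from the femoral growth plate of untreated C57BL/6 mice aged 12 days, with 2 one-colour Agilent arrays per zone. Each array received 100 ng of total RNA from a pool of 5 growth plates, and no genotype or agent distinguished the groups. The labels do not tie animals to pools, so p-values measure the spread between these samples, which may be partly technical. The comparison asked how miRNA levels differ as growth plate chondrocytes mature.

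The Dlk1-Dio3 locus lies on distal mouse chromosome 12. Its protein-coding genes Dlk1, Rtl1 and Dio3 are read from the paternal chromosome, while the noncoding RNAs Meg3, antisense Rtl1, Rian and Mirg, which carry the miRNA hairpins, are read from the maternal one. The miRNAs antisense to Rtl1 match that transcript perfectly and can direct its cleavage in addition to pairing with other messages through their seed. Growth plate chondrocytes divide in the proliferative zone, stop dividing in the prehypertrophic zone, and enlarge in the hypertrophic zone next to vessels and forming bone.

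The mature sequences are shown because the seed, bases 2 to 8 from the 5′ end, decides which messages a miRNA can pair with, and because the groups differ in base composition. All 8 members matched a RefSeq mature miRNA on the GRCm38.p6 build of the mouse genome, and all hairpins lay on the plus strand. The array uses older names without an arm for 6 members, which were assigned to the -5p or -3p arm from miRBase naming practice, since no probe sequences were in the files used here. The seed is in capitals.
miR-337-5p: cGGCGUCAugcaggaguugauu
miR-431 (now -5p): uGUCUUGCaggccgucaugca
miR-433 (now -3p): aUCAUGAUgggcuccucggugu
miR-127 (now -3p): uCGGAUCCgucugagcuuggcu
miR-434-3p: uUUGAACCaucacucgacuccu
miR-341 (now -3p): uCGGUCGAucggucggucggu
miR-1188 (now -5p): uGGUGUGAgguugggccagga
miR-370 (now -3p): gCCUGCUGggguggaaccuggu

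No 2 members shared a seed, and no other mature miRNA among the 1679 names in the RefSeq table had the seed of any member. Each member is thus a seed family of its own in that table. Of the 28 pairs of members, the longest shared stretch was the 9 bases CGUCAUGCA, present in miR-337-5p and in miR-431. Every other pair shared at most 5 bases in a row. The antisense Rtl1 members held 45.5% to 59.1% G and C, and the other 3 held 61.9% to 68.2%, so the groups did not overlap in composition. miR-341 carries the letters CGGU 4 times in its 21 bases.

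The mature miR-127 lies at chr12:109592888-109592909 and the mature miR-434-3p at chr12:109594565-109594586. The mature miR-337-5p lies at chr12:109585818-109585839. The hairpins of all 5 antisense members fell inside the span of Rtl1, a retrotransposon-derived gene, within 8.72 kb from the first hairpin start to the last. The next hairpin started 16.9 kb after the end of the miR-434 hairpin. miR-341 (mature at chr12:109611556-109611576), miR-1188 (chr12:109611841-109611861) and miR-370 (chr12:109618305-109618326) then lay inside the span of Rian, a long noncoding RNA that also hosts small nucleolar RNAs. The hairpins of miR-127 and miR-370 are given with both annotated mature arms in capitals, since these members gave the lowest and the highest hypertrophic minus proliferative differences of those tested.
miR-127 hairpin, chr12:109592846-109592915: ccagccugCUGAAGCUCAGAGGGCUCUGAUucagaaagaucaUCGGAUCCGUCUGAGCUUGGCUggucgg
miR-370 hairpin, chr12:109618258-109618336: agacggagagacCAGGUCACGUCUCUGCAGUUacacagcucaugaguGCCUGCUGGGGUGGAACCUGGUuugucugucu

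The antisense Rtl1 members miR-127, miR-434-3p and miR-337-5p, were lower in the hypertrophic than in the proliferative zone, by 3.43-fold, 2.63-fold and 2.25-fold (the last with 1 of the 2 hypertrophic arrays held at the detection floor), where 8.85% of the 226 miRNAs tested fell. No other member passed the test in any comparison of zones. For miR-341, miR-1188 and miR-370 the hypertrophic and proliferative arrays overlapped. Their log2 differences were 0.08, -0.14 and 0.43, which does not show equal levels. miR-431 was well above background on 1 proliferative array only and miR-433 on none. Signals are given as scaled units, the processed spot signal divided by a factor per array that equalises the 75th percentile of the 342 probes detected well above background throughout. Signals dimmer than 12.7 units, or 3.66 in log2, were raised to that floor.

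**Figure D1:**
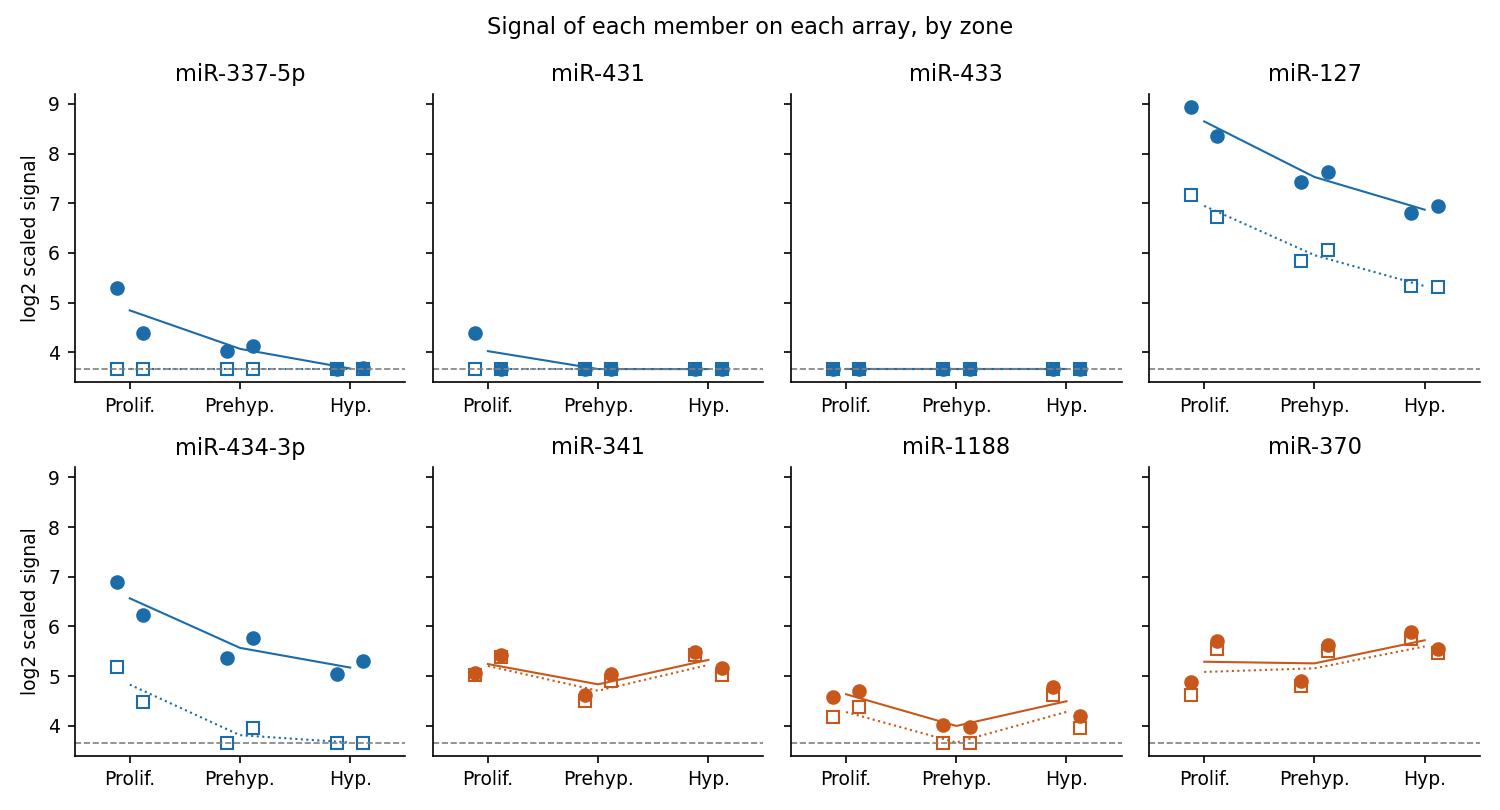
Log2 scaled signal (y axis) of the 8 members on each of the 6 arrays, by zone (x axis: proliferative, prehypertrophic, hypertrophic; replicate 1 left, replicate 2 right). Filled circles and solid lines show the brightest probe and its zone mean, open squares and dotted lines the other probe, blue the antisense Rtl1 members, orange the Rian members and the dashed line the floor of 3.66. Both miR-127 probes descend from zone to zone, whereas miR-341 and miR-1188 are lowest in the middle zone.

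miR-127, which directs cleavage of the Rtl1 message, read 493 and 326 scaled units on the proliferative arrays, 173 and 197 on the prehypertrophic and 111 and 123 on the hypertrophic arrays. Each zone lay wholly below the one before it, and the first proliferative array was the highest of all. On the log2 scale the zone means were 8.65 ± 0.42, 7.53 ± 0.13 and 6.87 ± 0.11 (SD, n = 2). The hypertrophic minus proliferative difference was -1.78 (SE 0.28, 95% interval -2.39 to -1.16, adjusted p = 0.00169 by limma). It was the lowest of the 226 miRNAs tested, and remained so in 15 of 22 other settings, with a rank of at most 4 in the rest. Many of these settings could not move the rank. Other factors per array shift all differences alike, apart from the floor. Blocking by run of title numbers, or leaving out prehypertrophic arrays, left every hypertrophic minus proliferative difference unchanged. A stricter filter only removed other miRNAs. The remaining steps were -1.12 from the proliferative to the prehypertrophic zone (adjusted p = 0.0709 by limma) and -0.66 from there to the hypertrophic zone (adjusted p = 0.275 by limma), and neither passed the threshold of 0.05. In pooled tissue such as this, fewer cells of a type and less RNA per cell cannot be told apart.

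The second miR-127 probe gave the same order at 144 and 106, 57.5 and 66.9, and 40.5 and 39.998 scaled units in the proliferative, prehypertrophic and hypertrophic zones. When each of the 446 probes above background was fitted as its own row, this probe fell by 1.62 on the log2 scale from the proliferative to the hypertrophic zone (adjusted p = 0.00371 by limma). In that fit 4.04% of all probes fell. The spots of the brighter probe, 10 per array, varied by 4.20% to 12.7% (coefficient of variation within an array), which covers spot noise and not the spread between samples.

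miR-434-3p, whose hairpin neighbours that of miR-127, read 119 and 75.4 scaled units in the proliferative zone, 41.1 and 54.8 in the prehypertrophic zone and 32.8 and 39.5 in the hypertrophic zone. The zones again did not overlap, and the proliferative arrays were the farthest apart. The hypertrophic minus proliferative log2 difference was -1.39 (SE 0.30, 95% interval -2.06 to -0.73, adjusted p = 0.0118 by limma), the third lowest of 226. Its second probe read 36.3 and 22.2 units in the proliferative zone and was not well above background in the hypertrophic zone, where it read 11.6 and 12.1. That probe was at least 2.24-fold lower in the hypertrophic zone (adjusted p = 0.0354 by limma over all probes). The floor of 12.7 units set this bound. The probe entered that fit only through the proliferative zone, the only zone where it was well above background on both arrays. Both hypertrophic values were raised to the floor, so its p-value adds no separate support.

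miR-337-5p, from the first hairpin of the group, read 39.1 and 21.0 scaled units in the proliferative zone, 16.2 and 17.4 in the prehypertrophic zone and 12.0 and 12.8 in the hypertrophic zone. The last values lay at the edge of detection, with only 1 of the 2 hypertrophic arrays well above background and the other raised to the floor. The hypertrophic minus proliferative log2 difference was -1.17 (SE 0.31, 95% interval -1.86 to -0.48, adjusted p = 0.0316 by limma), the tenth lowest of 226, and the floor narrowed the hypertrophic spread to an SD of 0.01. With the spots flagged as outliers left in, the difference was -0.10 (adjusted p = 0.953 by limma), and over 21 other settings the adjusted p ranged from 0.0089 to 0.953. Its second probe was well above background on no array.

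miR-431 and miR-433, from the hairpins between those of miR-337 and miR-127, were too dim to be tested. miR-431, studied elsewhere in axon growth and muscle, read 20.9 units on the first proliferative array, its only signal well above background, 10.4 on the second, and 6.98 to 7.95 on the other 4. miR-433, known as a repressor of Runx2 in bone-forming cells, read 7.72 and 5.25 units in the proliferative zone and 0.812 to 2.79 elsewhere, never well above background, with spots of 1 probe varying by 37.9% to 99.5%. The second probes of both stayed below 0 after background subtraction on all 6 arrays. For all 5 antisense members the first proliferative array gave the highest signal of the 6, whereas for miR-341, miR-1188 and miR-370 the first proliferative array read lower than the second.

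No Rian member passed the test in any comparison. miR-341, a rodent miRNA, read 33.5 and 42.8 scaled units in the proliferative zone, 24.5 and 33.2 in the prehypertrophic zone and 44.6 and 36.1 in the hypertrophic zone. The prehypertrophic arrays were the lowest, and the outer zones overlapped. Its hypertrophic minus proliferative log2 difference was 0.08 (95% interval -0.53 to 0.70, adjusted p = 0.9 by limma).

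miR-1188, whose hairpin starts 0.322 kb after that of miR-341, read 23.7 and 26.0 units, then 16.25 and 15.7, then 27.7 and 18.4 in the same order of zones. Both prehypertrophic arrays lay below all others. The hypertrophic minus proliferative log2 difference was -0.14 (95% interval -0.75 to 0.47, adjusted p = 0.837 by limma). The mean of the outer zones exceeded the prehypertrophic zone by 0.57 (95% interval 0.04 to 1.10, adjusted p = 0.386 by limma), which did not pass after adjustment.

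miR-370, known for its effect on fatty acid oxidation through Cpt1a, read 29.3 and 52.1 units in the proliferative zone, 29.7 and 49.2 in the prehypertrophic zone and 59.2 and 47.0 in the hypertrophic zone. Arrays of every zone overlapped those of the others, and the proliferative pair differed as much as any zones did. The hypertrophic minus proliferative log2 difference was 0.43 (95% interval -0.33 to 1.199, adjusted p = 0.538 by limma). These intervals do not show that the Rian members were equal in the outer zones: for miR-370 an increase of 1.199 on the log2 scale lies within it. The second probes of miR-341, miR-1188 and miR-370 gave differences of 0.02, 0.00 and 0.51.

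Of the 6 members that passed the filter on dim signals, 3 fell from the proliferative to the hypertrophic zone, against 8.85% of all 226 miRNAs tested. The same 3 showed no overlap between the arrays of those zones, as did 27% of all tested miRNAs in that direction. From the proliferative to the prehypertrophic zone no member passed the test by limma and 2.21% of all tested miRNAs were called, all of them higher. At an unadjusted p under 0.05 there were 4 of the 6 members, beside 12.8% of all tested miRNAs. Arrays of 5 members lay lower there without overlap, as did 24.3% of all tested miRNAs. From the prehypertrophic to the hypertrophic zone no member passed by limma, and 1.33% of all were called. At an unadjusted p under 0.05 there was 1 of the 6 members, beside 15% of all. The arrays of the 3 antisense members were lower without overlap (32.7% of all), and those of miR-341 and miR-1188 higher (34.1% of all). For the outer zones against the prehypertrophic zone no member passed by limma, and 1.77% of all were called. Unadjusted, 1 of the 6 members passed, beside 11.1% of all.

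**Figure D2:**
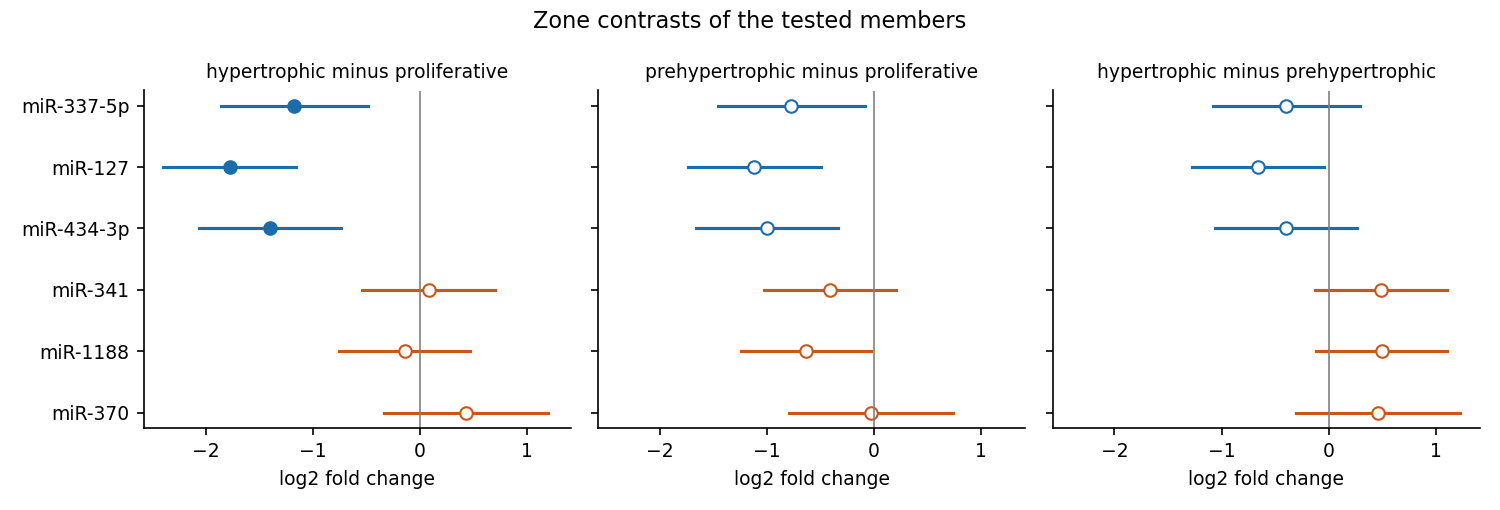
Log2 fold change (x axis) of the 6 tested members in the 3 comparisons of zones, with lines for the 95% interval. Filled points have an adjusted p under 0.05 by limma, blue marks antisense Rtl1 members and orange Rian members. Only the 3 antisense members in the hypertrophic minus proliferative panel are filled, and in the last panel the antisense values are all negative and the Rian values all positive, with none passing.

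The profiles of the tested members were compared within and between the hairpin groups. With each miRNA centred on its own mean over the 6 arrays, any 2 of the antisense members differed by a root mean square of 0.17 to 0.27 log2 units per array. The Rian members differed among themselves by 0.21 to 0.42, and the 9 pairs with 1 member of each group by 0.57 to 1.01. For scale, the other tested miRNAs lay at a median of 0.358 from the Rian mean and 0.713 from the antisense mean. These medians fall within the Rian and the mixed ranges, so neither range stands out. Distance from a mean is not the same measure as distance between pairs. The mean hypertrophic minus proliferative difference was -1.45 over the 3 antisense members and 0.12 over the 3 Rian members. The gap of -1.57 was negative in all 22 other settings, from -2.15 (without the second proliferative array) to -0.76 (normexp background correction), and was -0.99 without the first proliferative array. Many of these settings could not move the gap, so their number is no measure of support. Factors per array cancel in the gap, apart from the floor. No filter, runs as a block, or leaving out either prehypertrophic array left it unchanged. Between the prehypertrophic and proliferative zones the gap was -0.60, but -0.027 without the first proliferative array and -1.18 without the second. Between the hypertrophic and prehypertrophic zones it was -0.97, with a range of -2.12 (slide row as a block) to -0.40 (normexp). The gap between the groups was not itself tested. Whether base composition plays any part in it was not tested either, since only 162 of the 226 tested miRNAs (71.7%) had a RefSeq hairpin to compare.

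Differences within an array do not move with its scaling, apart from the floor. The antisense mean minus the Rian mean was 1.30 and 0.15 on the proliferative arrays, 0.19 and 0.05 on the prehypertrophic arrays and -1.13 and -0.57 on the hypertrophic arrays. All hypertrophic values lay below all others, while the second proliferative array lay among the prehypertrophic ones. For miR-127 minus miR-370 alone the values were 1.81 and 0.38, 0.28 and -0.26, and -1.35 and -0.87. This pair had the lowest and the highest hypertrophic minus proliferative differences of the tested members. A fall between those zones was thus set by the choice of pair and adds no separate support.

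**Figure D3:**
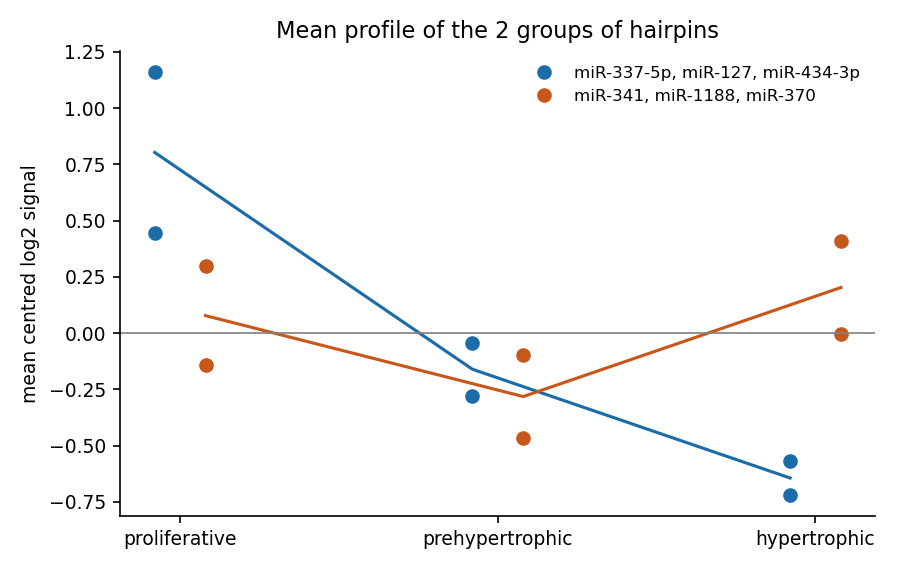
Mean centred log2 signal (y axis, each miRNA minus its own mean over 6 arrays) of the 3 tested antisense Rtl1 members (blue) and the 3 Rian members (orange) by zone (x axis). Points are single arrays and lines join zone means. The antisense mean descends from zone to zone, and the first proliferative array stands above the second, whereas the Rian mean is lowest in the prehypertrophic zone.

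Array position on the slide was not balanced against zone. Slide row 1 held the hypertrophic pair and row 2 the prehypertrophic pair, and the proliferative pair was split between the rows, so zone and row cannot be told apart between the later zones except through the proliferative pair. The sample titles number the arrays 13 to 15 and 16 to 18, each run with 1 array per zone, and no label calls a run a batch. The hypertrophic minus proliferative log2 difference in the first and second run was -1.998 and -1.55 for miR-127, -1.59 and -1.20 for miR-434-3p, and -1.61 and -0.73 for miR-337-5p. All of these were negative, as any pairing of arrays would give, since the hypertrophic arrays lay wholly below the proliferative ones. Values for miR-341 were 0.11 and 0.06, for miR-1188 -0.37 and 0.09, and for miR-370 0.68 and 0.18.

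The 3 calls depended on single arrays and on the scaling, with directions kept. Without the first proliferative array 1 member passed, miR-127, at -1.48. Without either hypertrophic array none did (miR-127 at -1.70 and -1.85, adjusted p = 0.151 and 0.134 by limma). Scaling mattered too: miR-127 alone passed after median scaling, quantile normalization, or the 75th percentile taken over all probes, and no member passed with no scaling, where miR-127 was at -1.29 and the median of all miRNAs moved by 0.48. Over 22 other settings the adjusted p of miR-127 ranged from 0.000192 to 0.151 and passed in 17, and that of miR-434-3p from 0.00306 to 0.298, passing in 12. miR-337-5p passed in 9 of 21. In all of these settings the 3 differences were negative. The counts of settings include repeats. Comparing only the 2 zones and leaving out either prehypertrophic array gave the same fit. Slide row as a block likewise repeated the fit without the second proliferative array. Without the second proliferative array the first step also passed for miR-127 (-1.42, adjusted p = 0.0331 by limma) and miR-337-5p (-1.22, adjusted p = 0.0389 by limma).

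**Figure D4:**
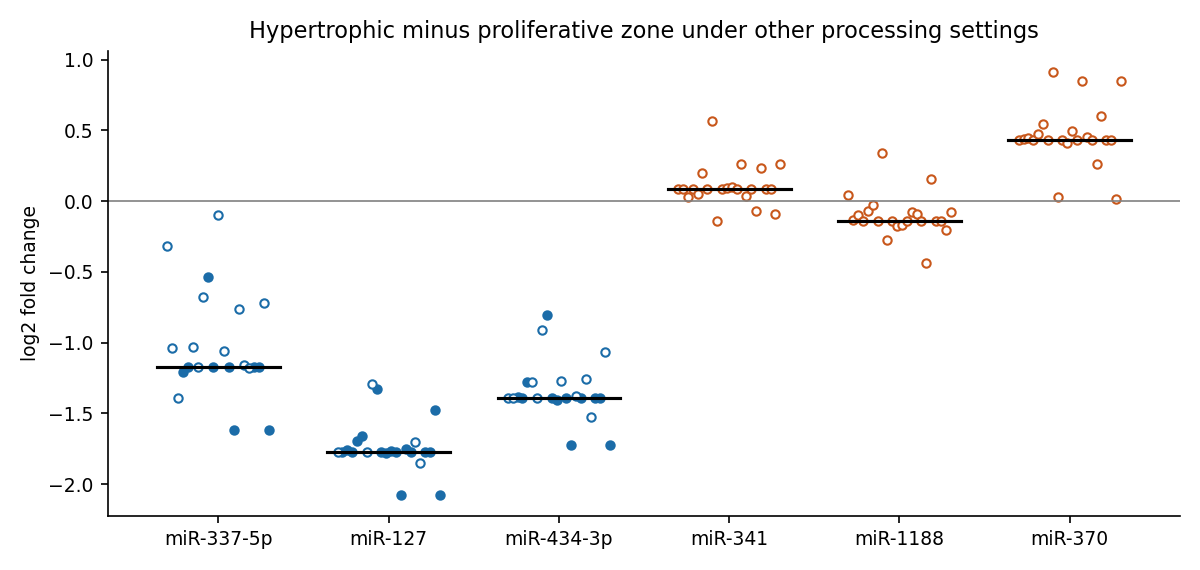
Hypertrophic minus proliferative log2 fold change (y axis) of the 6 tested members under the other processing settings. Each small point is 1 setting, filled where the adjusted p was under 0.05, and the black bar is the value given in the text. miR-127 stayed between -2.07 and -1.29, miR-434-3p between -1.72 and -0.81, and miR-337-5p between -1.62 and -0.10, while miR-341 and miR-1188 took both signs.

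Other products of the same stretch were mostly dim. Of 16 listed partner strands and neighbouring miRNAs on the array, 4 were well above background on any array and 3 could be tested, of which none passed by limma, with unadjusted p-values of 0.109, 0.653 and 0.846. miR-431*, the other arm of the miR-431 hairpin, was above background on 2 proliferative arrays, 1 prehypertrophic and no hypertrophic array. It entered the test only through the proliferative zone, and was at least 1.42-fold lower in the hypertrophic zone (adjusted p = 0.328 by limma). miR-433*, opposite miR-433, differed by -0.12 (adjusted p = 0.849 by limma), and miR-770-3p, from a hairpin before the antisense group, by 0.05 (adjusted p = 0.933 by limma). miR-136, another antisense Rtl1 miRNA, was above background on 1 proliferative array only.

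Farther along the locus, 10 of 50 listed distal Dlk1-Dio3 miRNAs were tested. From the proliferative to the hypertrophic zone 5 passed as lower, where 8.85% of all 226 miRNAs tested did, and none passed as higher. The median difference was -0.88, beside -0.00166 over all 226 miRNAs tested. The lowest difference was that of miR-329 at -1.59 (adjusted p = 0.0039 by limma), followed by miR-379 at -1.38 (adjusted p = 0.0393), miR-299* at -1.35 (adjusted p = 0.0178) and miR-382 at -1.10 (adjusted p = 0.0378). miR-154, not well above background in the hypertrophic zone, was at least 2.49-fold lower (adjusted p = 0.0316). miR-494 differed by 0.33 and miR-300 by -0.33 without passing. The medians for the antisense and Rian members were -1.39 and 0.08. Among 5 tested miRNAs of other imprinted loci 1 passed as lower, beside the same 8.85% of all. It was miR-675-3p of H19, at least 1.82-fold lower (adjusted p = 0.0393), and the median of the 5 was -0.35.

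**Figure D5:**
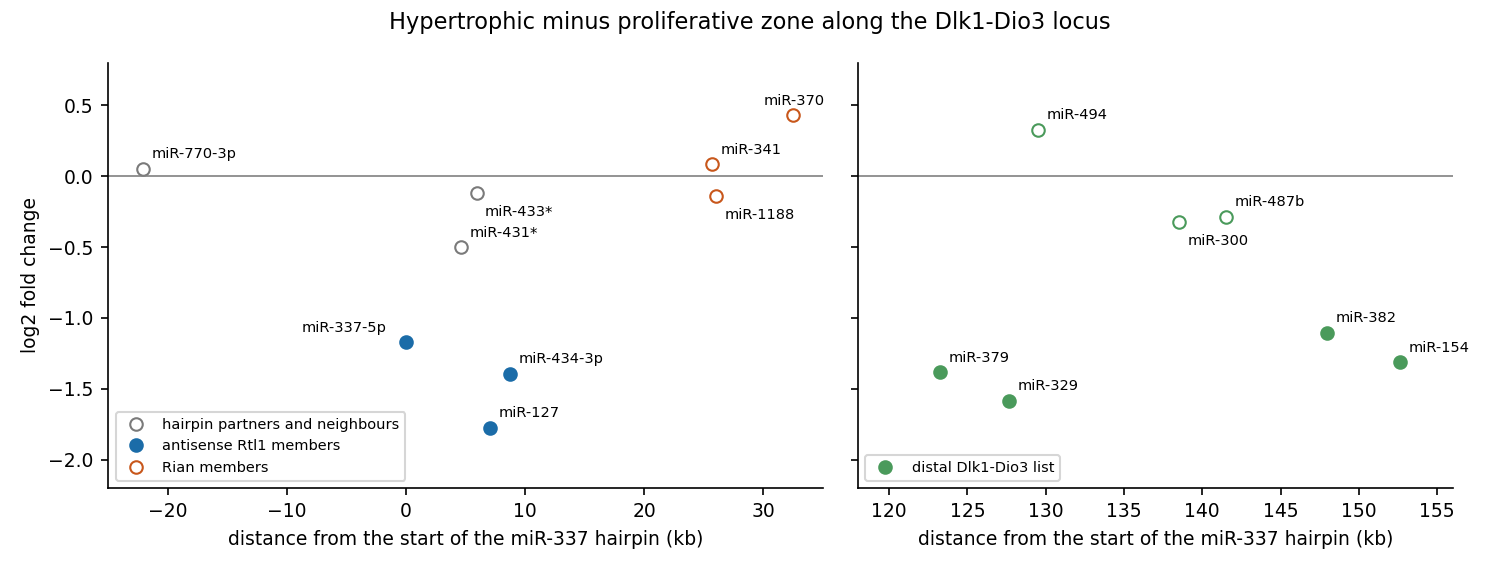
Hypertrophic minus proliferative log2 fold change (y axis) against the distance of each hairpin from the start of the miR-337 hairpin (x axis, kb; the axis is broken between the panels). Filled points passed limma's test after adjustment. The filled antisense points and 4 filled distal points (green) lie below -1, and the Rian points (orange) between them on the map lie near 0. Nearness to 0 is not particular to the Rian points, since the unfilled distal and neighbouring points lie between -0.50 and 0.33. Distal miRNAs without a hairpin matched by name, among them miR-299*, are not shown.

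The miRNAs outside the group whose profiles lay nearest to the antisense mean over the 6 arrays were miR-329 (root mean square difference 0.0752), let-7e (0.103), miR-299* (0.128), miR-382 (0.171) and miR-125a-5p (0.189). The median over all other tested miRNAs was 0.713. Of these 5, miR-329, miR-299* and miR-382 come from the distal Dlk1-Dio3 list, while let-7e and miR-125a-5p come from a cluster outside this locus. For miR-127 alone the nearest were miR-329 (0.0951), let-7e (0.178), miR-299* (0.223), miR-125a-5p (0.275) and miR-154 (0.282). Nearest to the Rian mean, in a search added after its values were seen, were miR-718 (0.0363), miR-1931 (0.0459), miR-99b* (0.0531), miR-205 (0.0611) and let-7g* (0.0716), with a median of 0.358.

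Among markers of other cells, miR-451 of blood and miR-126-3p of endothelium passed as higher in the hypertrophic than in the proliferative zone. Of all 226 miRNAs tested, 13 did. miR-126-3p entered the test only through the hypertrophic zone. No tested muscle or epithelial marker passed, and no nerve marker could be tested. The 4 chondrocyte markers (miR-140, miR-140*, miR-455 and miR-455*) were well above background on every array, with a summed signal of 6461 to 10367 scaled units in the proliferative, 6824 to 6922 in the prehypertrophic and 3910 to 4912 in the hypertrophic zone. None passed the test between the outer zones, where miR-455* differed by 0.37 and the other 3 by -0.98 to -0.76. Of 7 blood markers 4 were never above background, and the sum was 8.47 to 19.7, 31.0 to 32.9 and 251 to 281 units, led by miR-451 of red cells. Of 2 endothelial markers miR-126-3p was above background in the hypertrophic zone alone, at a sum of 31.9 to 45.7 units. The part of these cells in the fall of the antisense members was not tested. Muscle markers, of which only miR-208b was detected, summed to 146 to 154, 111 to 155 and 113 units. Of 8 nerve markers only miR-124 was detected, and of 7 epithelial markers 5 were never detected.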

How the data were processed

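The authors deposited background-subtracted linear spot intensity values with outlier flags, written by Feature Extraction 10.7.3.1 per the file headers. Their deposited log2 table matched the scanner's total per miRNA in log2 (values under 1 set to 1) less 1 constant for each array, with departures of at most 1.28e-06. Its column medians were -4.399 and -4.254 (proliferative), -4.46 and -4.455 (prehypertrophic), and -4.689 and -4.943 (hypertrophic). It served as an alternative.

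Outlier spots (384 to 515 of 13800 per array) were dropped, spots averaged per probe, and arrays scaled to the 75th percentile over 342 probes. No spot was saturated, and 24.2% to 27.9% were well above background. A probe passed when over 50% of its kept spots were flagged well above background. The brightest probe stood for a miRNA. The 226 miRNAs whose probe passed on both arrays of at least 1 zone entered the fit of limma 3.58.1 under R 4.3.3 (zone as factor, 6 arrays, 3 residual and 7.83 prior degrees of freedom), with Benjamini-Hochberg adjustment over the 226 and a threshold of 0.05. Every adjusted p comes from limma. Array number limits the precision.

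Members, lists and tests were chosen with earlier results of these data known. Named miRNAs were all members, detected partners and neighbours, up to 6 distal miRNAs by smallest p, up to 4 detected miRNAs of each other list, and the 5 nearest profiles; miR-494 and miR-300 were named after their values were seen. Alternatives changed scaling, background, floor, filter, probe, outliers, block or samples.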

Additional observations from a re-analysis of the deposited data

How the results depend on the processing

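The 3 members called between the hypertrophic and proliferative zones became 1 with the 75th percentile over all probes, median scaling, quantile normalization or the total signal per miRNA, and 0 with no scaling, 2 times the floor or no filter on dim miRNAs; leaving out 1 array gave 0 to 3. With no scaling the median of all miRNAs moved by 0.48, and by 0.11 with median scaling. Over all miRNAs, higher against lower calls were 13 and 20, against 10 and 1 (75th percentile over all probes), 11 and 1 (median), 11 and 8 (quantile) and 15 and 0 (no scaling); the count of 33 became 11, 12, 19 and 15. It was 20 with the authors' table, 16 with the total signal, 8 with 2 times the floor, 1 with no filter, and 1 to 45 without 1 array (13 without the first proliferative, 2 and 1 without the first and second hypertrophic). Between the prehypertrophic and proliferative zones the members called were 0, but 1 with normexp, 0.5 times the floor or the mean of all probes, and 0 to 2 without 1 array. The members called in the other comparisons stayed at 0, and no setting called a member higher.

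Signs turned only for differences that passed no test. Hypertrophic minus proliferative: miR-1188 was 0.34 (no scaling), 0.045 (2 times the floor) and -0.44 to 0.16 without 1 array (positive without the second hypertrophic). miR-341 was -0.14 (normexp) and -0.094 to 0.26 without 1 array (-0.07 without the first hypertrophic). Prehypertrophic minus proliferative: miR-370 was 0.089 (75th percentile over all probes), 0.10 (median), 0.12 (quantile), 0.30 (no scaling), 0.20 (authors' table), 0.020 (mean of all probes) and -0.45 to 0.38 without 1 array (0.33 without the first prehypertrophic). Hypertrophic minus prehypertrophic: miR-337-5p 0.69 with outlier spots kept. Outer zones against the middle: with slide row as a block miR-337-5p -0.48, miR-127 -0.22 and miR-434-3p -0.19; without 1 array miR-337-5p was -0.035 to 0.41 (lowest without the first proliferative) and miR-370 -0.11 to 0.61 (lowest without the first prehypertrophic). The cause was not tested.

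The labels give the zones no shared replicate numbers. Taking the 2 runs of title numbers as a block kept 3 members called (miR-127 adjusted p = 0.00901). Slide row as a block leaves only the first proliferative array to compare with the hypertrophic pair, giving the same values as without the second proliferative array, and so does not check the row. Normexp was run on median spot signals, an alternative added after seeing the data, in place of the planned version on mean signals. A probe near the floor limits miR-337-5p, miR-431 and miR-433, and 2 arrays per zone limit every interval.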
